A study of Homo sapiens with 12 samples.

Results

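The comparison described here set 5 arrays of the human melanoma line WM35 exposed to crizotinib, pooled over both exposure times, against 2 arrays of the same line given the vehicle DMSO. The 5 crizotinib arrays (3 after 8 h and 2 after 24 h) and the 2 controls were chosen by their sample titles, and they are 7 of the 12 arrays in the series. The other 5 arrays held cells given ciclopirox, an antifungal compound that binds iron, for 8 h (3 arrays) or 24 h (2 arrays). WM35 is 1 established line, so the arrays describe a single genetic background. All cultures were kept in RPMI medium with 5% fetal bovine serum, and each drug was used at the concentration that gave 75% inhibition in an earlier 72 h test. The concentration itself is not given in the labels. The control titles carry no time, so the same 2 controls served for 8 h and for 24 h. The labels do not state whether replicate arrays stem from independent cultures, and p-values therefore reflect how far these arrays scatter, which may be technical variation alone. Pooling the times asks which transcripts were moved in the same way at 8 h and at 24 h.

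Crizotinib is a small molecule that occupies the ATP site of a few receptor tyrosine kinases, among them MET, ALK and ROS1. MET is the receptor of hepatocyte growth factor, and in melanocytic cells it drives the MAP kinase and PI3K pathways towards growth, survival and movement. Crizotinib is also a weak base, and compounds of that kind can collect in lysosomes. Cells short of sterol in the endoplasmic reticulum release the SREBP transcription factors, which turn on the genes of cholesterol and fatty acid synthesis.

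The deposited data came as a scanner table, in which arrays carry a chip position, and a table of normalized intensities, in which columns carry the sample accession. These tables did not give the same sample to the same array. Across 10744 bright probes, each accession column matched exactly 1 scanner array, with r from 0.958 to 0.985 and no second array above 0.693. For the 2 controls that array was the one named in the sample description. For the other 10 samples it was not, and the described array correlated with the accession column at between -0.65 and 0.58. Under the accession naming, arrays of the same label resembled each other (mean r of 0.361 over 9 pairs, against -0.151 over 57 pairs of different labels), and 12 of 12 arrays were closest to an array of their own label. Under the description naming the mean r within a label was 0.159, and 5 of 12 arrays were closest to their own label. The arrays described as crizotinib comprised 2 that the accession columns place in crizotinib at 8 h and 3 that they place in ciclopirox at 8 h.

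**Figure D1:**
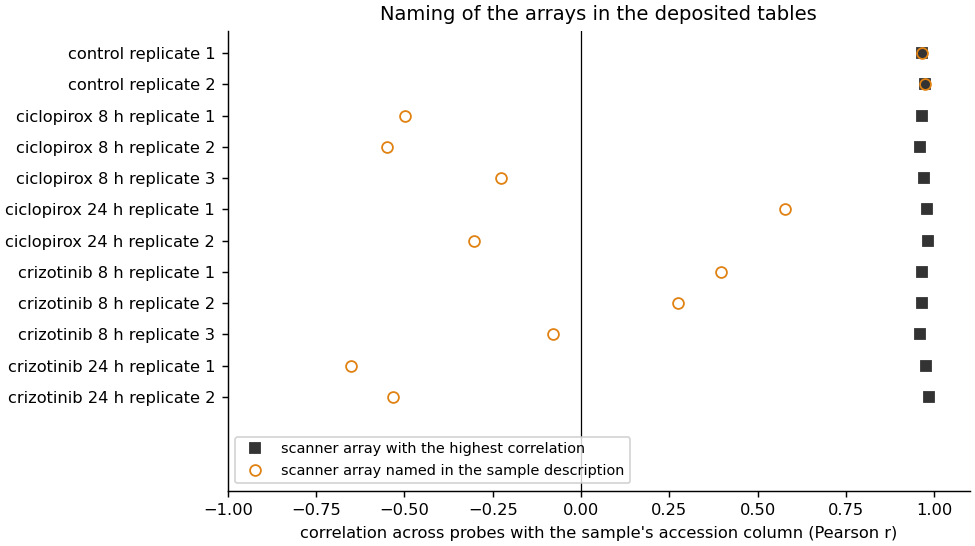
Correlation across probes (x axis, Pearson r) between each sample's accession-named column and a scanner array, for all 12 samples (y axis); squares mark the scanner array with the highest correlation and open circles the array named in the sample description. The squares lie between 0.958 and 0.985 for every sample, and the circles coincide with them for the 2 controls only.

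All values below follow the accession naming unless the description naming is stated, and this choice was made after the files and the levels of several response genes had been seen. Which naming is the true one was not tested beyond these correlations, so every direction below rests on the accession naming. With the scanner intensities and the description naming, as the analysis was first designed, 6 probes passed the pooled test (3 higher and 3 lower), none of them among the 4 reported below. That naming gave 0 calls at 8 h, 1 at 24 h and 0 between the times by limma, with 1737, 1765 and 1512 probes at an unadjusted p under 0.05.

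Values are log2 of the deposited normalized intensity, and a probe was kept when it was detected (detection p under 0.01) on at least 2 of the 12 arrays, which left 16216 of 38223 probes. Column medians ran from 4.65 to 4.72 on the log2 scale, and no source used here names the method of the deposited normalization. The root mean square distance between the controls was 0.252, the 8 h arrays lay 0.308 to 0.333 from the controls, and the 24 h arrays lay 0.458 to 0.493 from them. Arrays at 8 h and 24 h differed from each other by 0.422 to 0.478, so the pooled group joined samples that lay further apart than the 8 h arrays lay from control. The descriptions place all arrays on 1 chip, with the arrays of each group in neighbouring positions under either naming, so position and group cannot be told apart. The number of arrays limits the precision: the median standard error of a difference was 0.167 for the pooled fit.

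At the adjusted threshold of 0.05, 4 of 16216 probes (0.0247%) passed the pooled test in limma after Benjamini-Hochberg adjustment. TXNIP, STX3 and COBL rose (3 probes, 0.0185%), and JAG1 fell (1 probe, 0.00617%). At an unadjusted p under 0.05 there were 1575 probes. Each of the 4 had nearly the same level at 8 h and at 24 h. The pooled test counts a difference between the times as spread and so favours such probes. Their flat course therefore follows from how they were selected and is not a separate result.

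TXNIP encodes a protein that binds thioredoxin and restrains glucose uptake, and its transcription is raised by glucose metabolites and by FOXO factors. Its level was 8.88 and 8.995 in the controls, 10.63, 10.76 and 10.42 at 8 h, and 10.49 and 10.58 at 24 h. All 5 crizotinib arrays lay above both controls, and the times overlapped. The difference was 1.63 ± 0.13 (log2, SE), a 3.11-fold rise, with an adjusted p of 0.0102 in limma. The call was lost without control replicate 1 (adjusted p 0.532), control replicate 2 (0.328), crizotinib 8 h replicate 1 (0.0593) or crizotinib 24 h replicate 2 (0.0546), while the difference stayed between 1.58 and 1.69. Under the description naming the TXNIP difference was 0.98, with an adjusted p of 0.449.

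The promoter of TXNIP is shown because this gene had the smallest adjusted p. The window from 250 bases before to 50 after its start, in RefSeq's GRCh38.p14 table, holds a carbohydrate response element, searched on both strands as CACGNG followed after any 5 bases by CACGNG, which 20 of 35116 such windows (0.057%) contain. The stretch around it, chr1:145996626-145996692 on the minus strand, carries the element in capitals. A match describes the letters and shows no binding.
TXNIP: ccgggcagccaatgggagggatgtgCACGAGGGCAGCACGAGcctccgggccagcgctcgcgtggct

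STX3, a syntaxin that helps vesicles fuse with the plasma membrane, stood at 8.42 and 8.53 in the controls, at 9.44, 9.56 and 9.54 at 8 h, and at 9.59 and 9.57 at 24 h. Its difference was 1.06 ± 0.11 (SE), with an adjusted p of 0.0466 in limma. COBL, which nucleates actin filaments, stood at 7.03 and 6.90 in the controls, at 7.98, 7.99 and 7.92 at 8 h, and at 7.97 and 8.02 at 24 h. Its difference was 1.01 ± 0.11 (adjusted p 0.0466, limma), and its 5 crizotinib values spanned less than the gap between the controls. JAG1, a ligand of Notch receptors, stood at 8.42 and 8.36 in the controls, at 6.995, 7.23 and 7.26 at 8 h, and at 7.13 and 7.39 at 24 h. It fell by 1.19 (adjusted p 0.0466, limma). The groups did not overlap for any of these 3 genes. None of the 3 calls held when any 1 array was left out, with adjusted p from 0.115 to 0.932, though each difference kept its direction. They ran from 1.01 to 1.12 for STX3, from 0.95 to 1.08 for COBL and from -1.23 to -1.14 for JAG1. Under the description naming the differences were 0.46, 0.52 and -0.43.

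**Figure D2:**
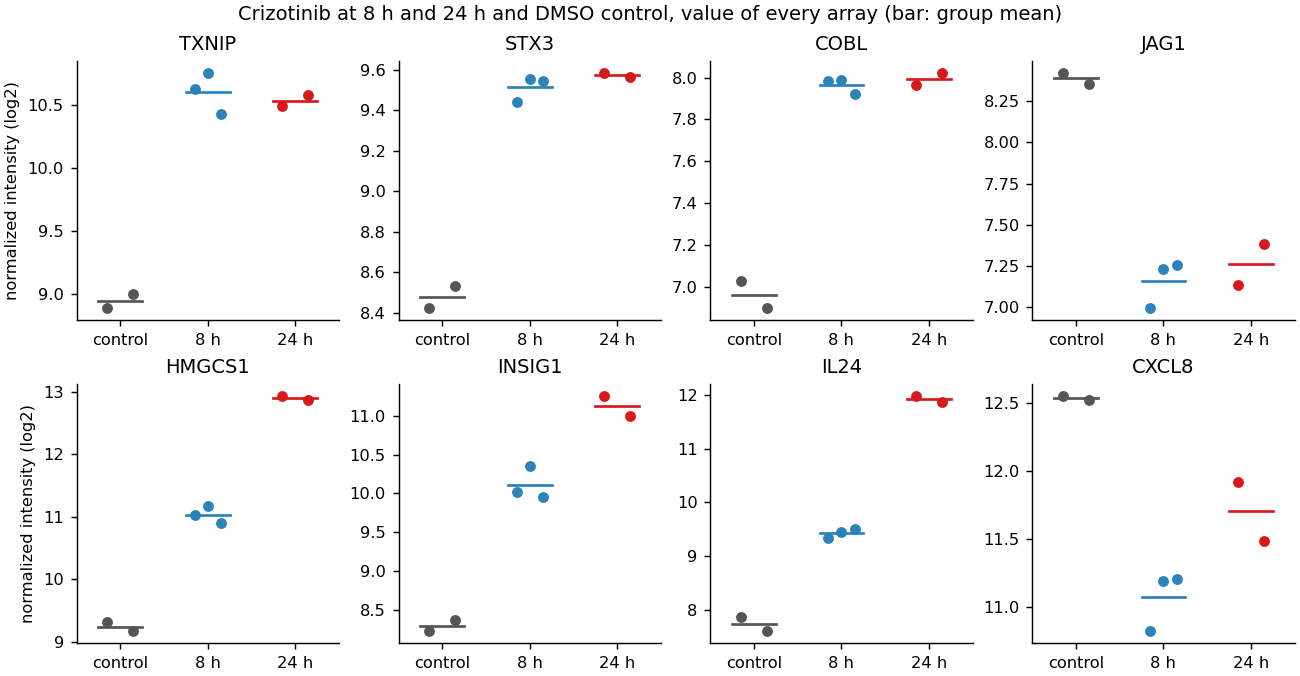
Normalized intensity (y axis, log2) of 8 genes on each array of the DMSO control, crizotinib 8 h and crizotinib 24 h groups (x axis); points are arrays and bars are group means, and each panel has its own y range. TXNIP, STX3, COBL and JAG1 sit at the same level at both times, whereas HMGCS1, INSIG1 and IL24 climb again at 24 h and CXCL8 lies lowest at 8 h.

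The pooled fit treats the difference between the times as spread within the group. Its prior SD was 0.192, against 0.148 when each time had its own mean. Fitted with a mean per time, 93 probes differed from control at 8 h (0.574%, 56 higher and 37 lower) and 2400 at 24 h (14.8%, 1232 higher and 1168 lower). The times differed from each other for 2579 probes (15.9%). With both times weighted equally, 797 probes (4.91%, 479 higher and 318 lower) differed from control, and all 4 of the pooled calls were among them. These counts moved with single arrays. The equal-weight count was 79 without control replicate 1, 59 without control replicate 2, and between 387 and 544 without any 1 crizotinib array. The 8 h count was 0 without either control (1415 and 1615 probes at an unadjusted p under 0.05), 6 to 8 without any 1 of the 8 h arrays and 43 without either 24 h array. The 24 h count was 662 and 730 without control replicates 1 and 2 and 1184 without crizotinib 24 h replicate 1. Between the times it was 1407 when crizotinib 8 h replicate 1 was left out, 1655 for replicate 3 of that group, and 1104 for crizotinib 24 h replicate 1. The controls are shared by both times, so the 8 h and 24 h differences from control are not independent of each other.

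Changes present at both times separately were counted as well. Called higher at 8 h and at 24 h were 39 probes (0.241%), and called lower at both were 15 (0.0925%). Together they made up 58.1% of the 8 h calls and 2.25% of the 24 h calls. Without either control this count was 0, without any 1 of the 8 h arrays it was 6 to 8, and without either 24 h array it was 29. Of the 28 genes with a symbol that rose at both times, 5 stand in the cholesterol list described below (HMGCS1, INSIG1, MSMO1, MVK and SQLE), 3 in the list of PI3K, FOXO and mTOR response genes (TXNIP, KLF6 and CITED2), 1 in the fatty acid list (SCD) and 1 in the lysosome list (SQSTM1). The other 18 stand in no list, among them IL24, SH2D5, PTPRR, STX3, COBL and LPIN1, a phosphatidate phosphatase. The genes that fell at both times included JAG1, the ephrin ligand EFNB2, the hyaluronan synthases HAS2 and HAS3, the chemokine CXCL8, the transcriptional inhibitor ID1 and MYLIP, a ubiquitin ligase of the LDL receptor. The examples outside the lists were chosen after the values were seen.

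Without regard to any test, the 5 crizotinib values lay wholly above the controls for 1410 probes (8.7%) and wholly below them for 1600 (9.87%). Of these, 56 higher and 23 lower probes differed by at least 2-fold. The largest differences are given next as values, since none of them passed the pooled test.

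IL24, a secreted cytokine, had the largest pooled difference, 2.69 ± 0.78 (SE, adjusted p 0.363, limma). Its levels were 7.87 and 7.60 in the controls, 9.34, 9.44 and 9.50 at 8 h, and 11.98 and 11.87 at 24 h. The 3 groups were fully separated. IL24 rose 3.23-fold at 8 h (adjusted p 0.00354) and 18.3-fold at 24 h (1.6e-05), both by limma. SH2D5, an adaptor with a phosphotyrosine-binding domain, stood at 5.2 and 5.46 in the controls and reached 7.03, 6.47 and 6.82 at 8 h and 7.81 and 8.19 at 24 h. PTPRR, a phosphatase that acts on MAP kinases, was not above the background floor in either control, and its pooled rise is given only as at least 1.86-fold. The floor was the 99th percentile of the probes detected on no array, 5.07 to 5.24 on the log2 scale depending on the array.

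Among the largest lower differences, CXCL8, the chemokine interleukin 8, stood at 12.55 and 12.52 in the controls. It was at 10.82, 11.19 and 11.20 at 8 h and at 11.92 and 11.48 at 24 h. CXCL8 fell by 1.47 at 8 h (adjusted p 0.0198) and by 0.83 at 24 h (0.0239), and the 24 h arrays lay above the 8 h arrays (adjusted p 0.0431), by limma. HAS3 followed the same order, with 7.72 and 7.63 in the controls, 6.04, 5.996 and 6.23 at 8 h, and 7.10 and 6.998 at 24 h. EFNB2, the ligand of EPHB receptors, stood at 8.43 and 8.42 in the controls, at 7.22, 7.44 and 7.53 at 8 h, and at 7.15 and 7.03 at 24 h. Its times did not differ past the threshold (adjusted p 0.13). EDN1, the endothelin that activates melanocytes through EDNRB, stood at 7.44 and 7.51, then at 6.64, 6.95 and 6.34 at 8 h, and at 5.81 and 5.74 at 24 h. EDN1 fell by 1.70 at 24 h (adjusted p 0.00154, limma). RPPH1, the RNA of ribonuclease P, had the largest lower pooled difference, -1.41, with control values of 7.72 and 7.87 and crizotinib values from 5.12 to 7.24. The 24 h arrays of RPPH1 differed from each other by more than the 8 h arrays did.

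Cholesterol synthesis and uptake genes had the highest medians of the lists at both times. This list and those below were chosen with earlier results of these data known. A count above the share of all probes may therefore partly reflect that choice. Of the 20 listed genes 14 had a probe and 12 were tested. Of the 12, 10 were higher with both times weighted equally, 5 were higher at 8 h and 10 at 24 h, and none was lower in these 3 counts, against 2.95%, 0.345% and 7.6% of all probes higher in the same comparisons. The median difference over the 12 was 0.68 at 8 h and 2.07 at 24 h, against -0.01 and -0.02 over all probes. In 9 of the 12 every crizotinib array lay above both controls, against 8.7% of all probes. In the pooled test 0 of the 12 passed by limma, with 8 at an unadjusted p under 0.05, against 1575 of all 16216 probes. In the test between the times 10 of the 12 were higher at 24 h, against 8.52% of all probes. With 1 array left out the equal-weight count stayed between 8 and 11 and the 24 h count between 10 and 11. The 8 h count was 0 without either control, 3 without any 1 of the 8 h arrays and 4 without either 24 h array. Under the description naming 0 of the 12 were called in any of the 3 comparisons. The scanner arrays matched to the accession columns gave 10 at equal weight, 7 at 8 h and 10 at 24 h. The matched arrays were picked by their likeness to the accession columns and carry the same labels, so these counts are no independent check.

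HMGCS1, which makes the HMG-CoA that feeds the pathway, stood at 9.31 and 9.17 in the controls, at 11.03, 11.17 and 10.90 at 8 h, and at 12.93 and 12.86 at 24 h. It rose 3.46-fold at 8 h (adjusted p 0.00354) and 12.6-fold at 24 h (1.6e-05), by limma. Its pooled difference was 2.53 ± 0.59 (SE, adjusted p 0.245). MSMO1, a sterol demethylase, stood at 7.09 and 7.07, then at 8.59, 8.72 and 8.85 at 8 h, and at 10.69 and 10.58 at 24 h. INSIG1, which holds the SREBP precursors in the endoplasmic reticulum when sterol is plentiful, stood at 8.23 and 8.37, then at 10.02, 10.35 and 9.95 at 8 h, and at 11.26 and 11.002 at 24 h. For all of these 3 genes the 8 h arrays lay between the controls and the 24 h arrays without overlap. The second probes of MSMO1 and INSIG1 moved in the same direction and were also called at both times.

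Most other genes of the pathway rose at 24 h, and some of them at 8 h as well. SQLE, the squalene epoxidase, stood at 8.70 and 8.82 in the controls, at 9.78, 9.91 and 9.78 at 8 h, and at 11.47 and 11.16 at 24 h. MVK, the mevalonate kinase, stood at 5.81 and 6.17, then at 7.18, 7.14 and 6.90 at 8 h, and at 8.12 and 8.05 at 24 h. DHCR7, which completes cholesterol, stood at 7.86 and 7.75, then at 8.41, 8.58 and 8.39 at 8 h (not past the test, adjusted p 0.0663, limma), and at 10.20 and 10.02 at 24 h. MVD, the mevalonate diphosphate decarboxylase, stood at 6.05 and 6.02, overlapped the controls at 8 h (6.32, 5.81 and 5.98) and reached 8.01 and 8.17 at 24 h. LSS, SC5D and NSDHL rose at 24 h by 1.76, 1.84 and 1.37 on the log2 scale. FDPS and SREBF2 were called at neither time, with FDPS at 8.18 and 8.13 in the controls and 7.87 to 8.52 under crizotinib. SREBF2, the transcription factor of this pathway, was not above the floor in either control.

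**Figure D3:**
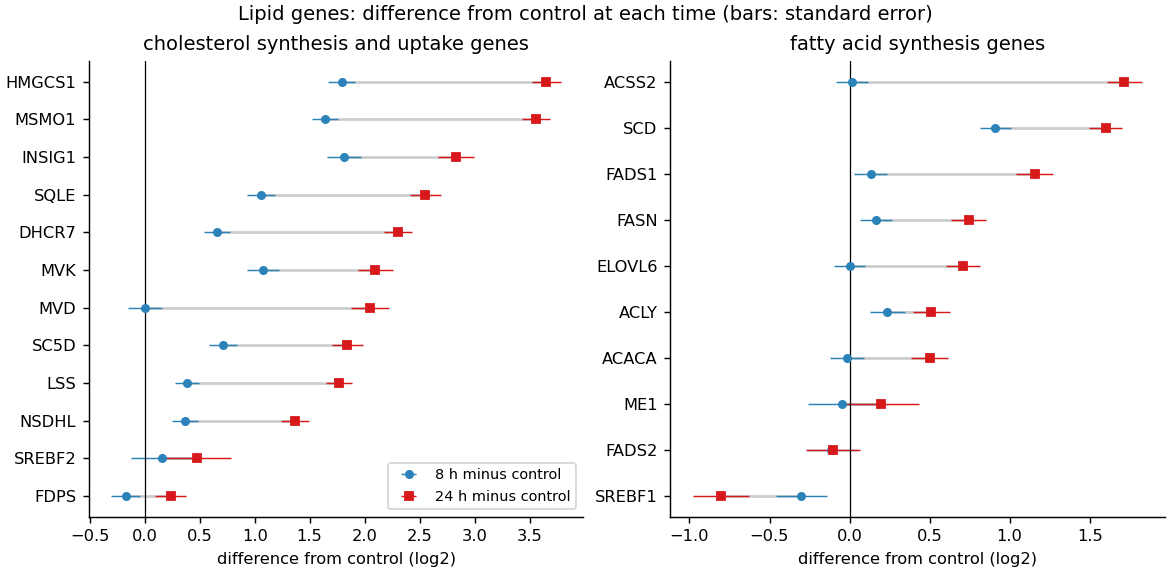
Difference from control (x axis, log2) at 8 h (circles) and at 24 h (squares) for each tested gene (y axis) of cholesterol synthesis and uptake, left, and fatty acid synthesis, right; bars are standard errors from limma. The 10 called cholesterol genes lie between 1.37 and 3.65 at 24 h, and among the fatty acid genes SREBF1 lies below 0 at both times.

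Promoters of this group are shown because most of its members moved together. RefSeq's promoter table held 11 of the 12 genes, and 11 of the 11 contained CCAAT on either strand, the box bound by NF-Y, against 34.6% of 35116 windows. These genes include FDPS and SREBF2, which were called at neither time. A sterol response element, searched as TCACNCCAC on both strands, was found in 1 of the 11, SREBF2, against 1.13% of all windows. The element was thus found in none of the called genes. Other spellings of the element were not searched. Capitals mark CCAAT boxes, or ATTGG on the opposite strand, in HMGCS1 (chr5:43313483-43313592, minus strand) and MSMO1 (chr4:165327459-165327664, plus strand). In SREBF2 (chr22:41832947-41833005, plus strand) they mark the sterol response element.
HMGCS1: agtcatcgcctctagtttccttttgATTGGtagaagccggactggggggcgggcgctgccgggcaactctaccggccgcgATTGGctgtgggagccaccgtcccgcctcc
MSMO1: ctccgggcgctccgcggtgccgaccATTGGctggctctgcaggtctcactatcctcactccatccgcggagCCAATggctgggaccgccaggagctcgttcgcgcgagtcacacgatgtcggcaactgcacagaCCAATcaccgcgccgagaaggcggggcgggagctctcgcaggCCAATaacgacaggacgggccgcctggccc
SREBF2: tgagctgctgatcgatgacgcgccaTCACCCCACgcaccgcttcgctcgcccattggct

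Fatty acid synthesis genes rose mainly at 24 h. All 10 listed genes were tested: 4 were higher at equal weight, 1 at 8 h and 7 at 24 h, and 1 was lower at 24 h. Of all probes 2.95%, 0.345% and 7.6% were higher in these comparisons and 7.2% lower at 24 h. SCD, the stearoyl-CoA desaturase, stood at 11.19 and 11.21 in the controls, at 12.09, 12.10 and 12.13 at 8 h, and at 12.78 and 12.81 at 24 h, with no overlap between the 3 groups. ACSS2, which makes acetyl-CoA from acetate, stood at 9.27 and 9.20, overlapped the controls at 8 h (9.21, 9.30 and 9.23) and reached 10.99 and 10.90 at 24 h. FADS1, a fatty acid desaturase, and FASN, the fatty acid synthase, rose at 24 h by 1.16 and 0.74. SREBF1, the transcription factor that governs many of these genes, fell by 0.81 at 24 h (adjusted p 0.021, limma), from 7.99 and 8.10 to 7.11 and 7.37. At 24 h, 5 of the 10 were called without control replicate 1, control replicate 2 or crizotinib 24 h replicate 1. At equal weight 1 was called without either control, and the SCD call at 8 h was lost without either control or any 1 of the 8 h arrays.

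Of the lysosome and autophagy genes 18 were tested (19 of 20 had a probe). At equal weight 5 were higher (2.95% of all probes), at 8 h 1 was (0.345%) and at 24 h 7 were (7.6%), and 1 was lower at 24 h (7.2%), GLA, a lysosomal galactosidase. For 10 of the 18 every crizotinib array lay above both controls, against 8.7% of all probes. SQSTM1, the autophagy receptor p62, stood at 13.31 and 13.22 in the controls, at 14.06, 14.11 and 14.01 at 8 h, and at 14.52 and 14.64 at 24 h. It rose 1.73-fold at 8 h (adjusted p 0.03) and 2.49-fold at 24 h (0.000614), by limma. WIPI1, which acts in autophagosome formation, stood at 5.75 and 5.25, then at 6.09, 6.37 and 6.26 at 8 h, and at 7.47 and 7.53 at 24 h. GPNMB, a glycoprotein of lysosomes and melanosomes, rose by 1.78 at 24 h, and NPC1, which exports cholesterol from lysosomes, by 1.28. Without either control, or without either 24 h array, 5 of the 18 were called at 24 h. At equal weight 2 were called without either control. The SQSTM1 call at 8 h was lost without either control or any 1 of the 8 h arrays.

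Genes that respond to PI3K, FOXO and mTOR signalling included TXNIP, the only list member past the pooled test in any list. Of 12 tested, 5 were higher at equal weight (2.95% of all probes), 3 at 8 h (TXNIP, KLF6 and CITED2, against 0.345%) and 6 at 24 h (7.6%), and 1 was lower at 24 h (IRS1, against 7.2%). KLF6, a zinc finger transcription factor, stood at 9.97 and 9.98 in the controls, at 10.73, 10.82 and 10.69 at 8 h, and at 10.74 and 10.88 at 24 h. CITED2, a co-regulator that competes for p300, stood at 7.56 and 7.28, then at 8.49, 8.39 and 8.39 at 8 h, and at 8.29 and 8.26 at 24 h. Both showed the flat course of TXNIP, with no difference past the threshold between the times (adjusted p 0.74 and 0.43). IRS2, an adaptor of the insulin receptor, rose at 24 h by 0.99. The 8 h calls fell to 0 without either control and to 1 without any 1 of the 8 h arrays. At 24 h 4 were called without either control or without crizotinib 24 h replicate 1. At equal weight 3 and 2 were called without control replicates 1 and 2.

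Targets of p53 differed between the times, so their pooled mean mixed arrays near the control level with arrays far from it. Of 15 tested, 0 were called at 8 h by limma (0.574% of all probes) and 12 were higher at 24 h (7.6%). The medians were -0.02 at 8 h and 1.18 at 24 h. At 8 h 4 of the 15 had an unadjusted p under 0.05, against 2276 of all 16216 probes. In the test between the times 12 of the 15 were higher at 24 h, against 8.52% of all probes. At equal weight 9 were higher (2.95% of all probes), falling to 2 without either control. With 1 array left out the 24 h count stayed between 10 and 12. CDKN1A, the cell cycle inhibitor p21, was below the floor in both controls (4.42 and 4.64) and at 8 h (4.91, 4.38 and 4.70), and stood at 7.10 and 7.13 at 24 h, so the pooled rise is given only as at least 1.40-fold. ZMAT3, a p53-induced RNA-binding protein, stood at 8.89 and 8.94, then at 8.95, 9.11 and 8.77 at 8 h, and at 11.19 and 10.87 at 24 h. SESN1, a sestrin that also stands in the FOXO list, stood at 6.54 and 6.51, then at 6.52, 6.39 and 6.66, and at 8.95 and 8.84 at 24 h. The 8 h arrays overlapped the controls for all of these. TP53INP1 rose at 24 h by 2.59, and MDM2, the ubiquitin ligase of p53, by 1.79.

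Most mitotic genes fell at 24 h, and AURKA alone was called at 8 h. Of 20 tested, 1 was higher at 8 h (0.345% of all probes) and 14 were lower at 24 h (7.2%). At equal weight and in the pooled fit 0 were called by limma, against 4.91% and 0.0247% of all probes. At an unadjusted p under 0.05 there were 3 and 0, against 3673 and 1575 of all 16216 probes. In the test between the times 18 of the 20 were lower at 24 h, against 7.39% of all probes. The medians were 0.31 at 8 h, -0.57 at 24 h and -0.08 for the pooled difference. The fitted difference was above 0 at 8 h in 18 of the 20, all but CENPE and CENPF, and below 0 at 24 h in 20. AURKA, the aurora kinase of spindle assembly, stood at 11.36 and 11.34 in the controls, at 12.09, 12.03 and 11.92 at 8 h, and at 10.79 and 10.79 at 24 h. It rose by 0.66 at 8 h (adjusted p 0.0465) and fell by 0.56 at 24 h (0.0163), by limma, and a second AURKA probe was called in the same way. CCNA2, the S and G2 phase cyclin, stood at 11.13 and 11.15, then at 11.47, 11.46 and 11.37 at 8 h, and at 10.34 and 9.98 at 24 h. CDC20, an activator of the anaphase-promoting complex, fell by 0.81 at 24 h. The AURKA call at 8 h was lost without any 1 array. The 24 h count was 2 without control replicate 1, 6 without control replicate 2, 7 without crizotinib 24 h replicate 1 and 11 without crizotinib 24 h replicate 2.

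DNA replication genes were called at 24 h and not at 8 h. Of 17 tested, 13 were lower at 24 h (7.2% of all probes) and 2 at equal weight (MCM2 and GINS2, against 1.96%). By limma 0 were called at 8 h, against 0.574% of all probes. At an unadjusted p under 0.05 there were 3 at 8 h, against 2276 of all 16216 probes. RRM2, a subunit of ribonucleotide reductase, stood at 10.26 and 9.999 in the controls, at 10.17, 10.45 and 10.01 at 8 h, and at 9.01 and 8.76 at 24 h. GINS2, part of the replicative helicase, stood at 11.67 and 11.63, then at 11.39, 11.44 and 11.37 at 8 h, and at 10.67 and 10.68 at 24 h. The 24 h count was 5 and 3 without control replicates 1 and 2 and 7 and 8 without crizotinib 24 h replicates 1 and 2. Between the times 12 of the 17 were lower at 24 h, against 7.39% of all probes. The equal-weight calls fell to 0 without either control, and to 1 without crizotinib 24 h replicate 2 or any 1 of the 8 h arrays. The medians of the replication list were -0.03 at 8 h and -0.59 at 24 h. These arrays cannot tell fewer cells in a cycle phase from less RNA per cell.

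**Figure D4:**
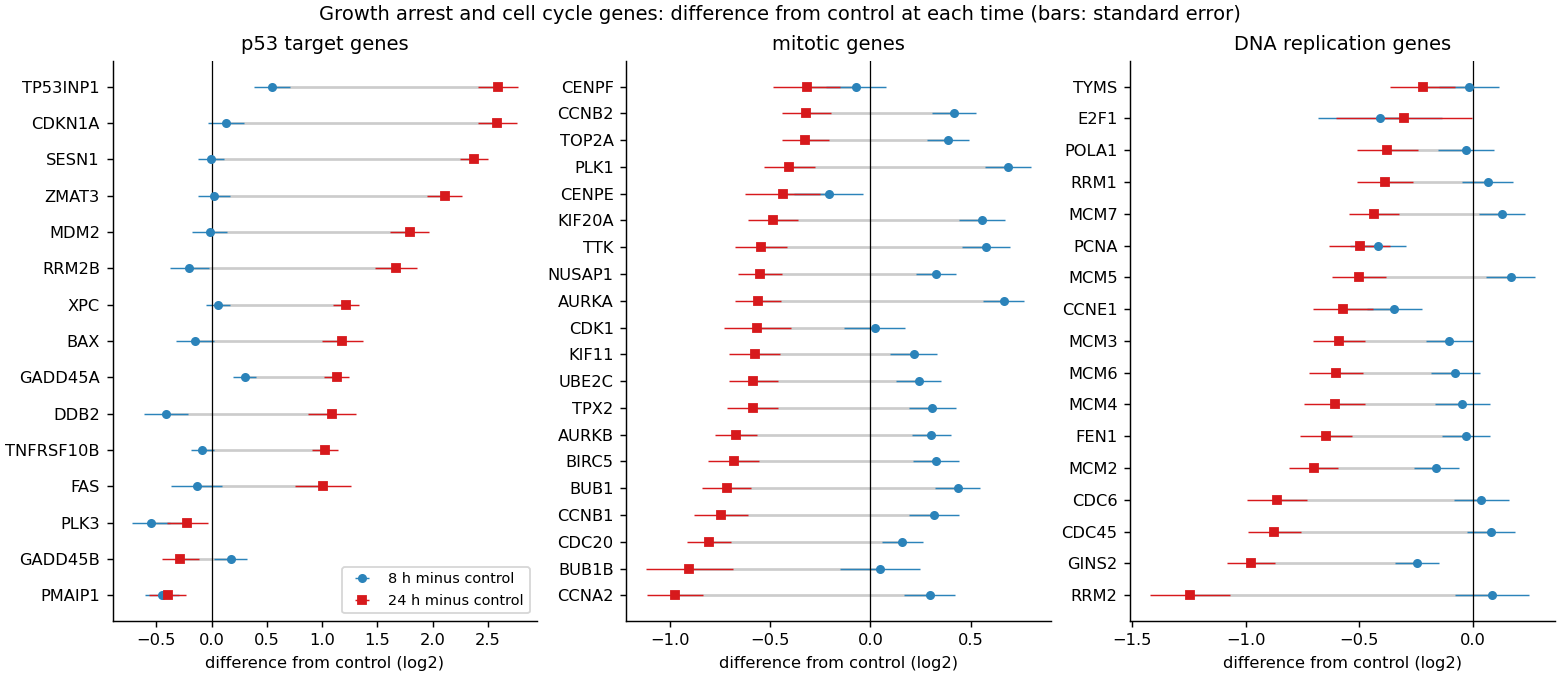
Difference from control (x axis, log2) at 8 h (circles) and 24 h (squares) for each tested gene (y axis) among p53 targets, mitotic genes and DNA replication genes; bars are standard errors from limma. Most p53 targets lie near 0 at 8 h and between 1.01 and 2.59 at 24 h, with CDKN1A drawn at its fitted value although its controls lay below the floor, and 18 of the 20 mitotic genes lie above 0 at 8 h and below it at 24 h.

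Only 5 probes (0.0308%) were called at both times in opposite directions, and all 5 are named here because the count is small. They were the 2 AURKA probes, TGFA, IL1A and IL1B. IL1A, the cytokine interleukin 1 alpha, stood at 8.22 and 8.08 in the controls, at 7.23, 7.46 and 7.41 at 8 h, and at 9.53 and 9.64 at 24 h. IL1B stood at 7.64 and 7.75, then at 6.61, 6.73 and 6.77 at 8 h, and at 9.39 and 9.11 at 24 h. Both fell at 8 h (adjusted p 0.041 and 0.0256) and rose at 24 h (0.000659 and 0.000628), by limma. Of the 7 interleukin and chemokine genes tested, 3 were lower at 8 h, against 0.228% of all probes, and at 24 h 4 were higher (7.6%) and 2 lower (7.2%). The 8 h calls of this list fell to 0 without either control or any 1 of the 8 h arrays. At 24 h 4 were called without control replicate 1 or crizotinib 24 h replicate 1, and 3 without control replicate 2 or crizotinib 24 h replicate 2. CCL2, a monocyte chemokine, fell by 1.15 at 24 h, from 8.48 and 8.58 to 7.48 and 7.27.

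Of MET, ALK and ROS1, the crizotinib targets named above, MET alone could be measured well above the floor. MET stood at 7.71 and 7.84 in the controls, at 7.84, 7.82 and 7.78 at 8 h, and at 8.09 and 8.11 at 24 h. Its pooled difference was 0.16 ± 0.14 (SE, adjusted p 0.732, limma), and its crizotinib and control arrays overlapped. ALK was at or near the floor, between 4.36 and 5.23 on all 7 arrays. AXL, a receptor of GAS6, stood at 12.50 and 12.54 and between 12.41 and 12.68 under crizotinib. ROS1 and MST1R had no kept probe. Of the 8 tested members of the MET pathway list, PLXNB1 alone was called, at 24 h, and it was not above the floor in either control. Of 11 other receptor tyrosine kinases, IGF1R alone was called, also at 24 h, rising from 6.18 and 6.27 to 7.13 and 6.93, while 7.6% of all probes were higher at 24 h. Neither list call at 24 h held without either control or without crizotinib 24 h replicate 1.

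Immediate early and MAP kinase feedback genes follow the activity of that pathway. Of 22 tested, 0 were called at 8 h by limma, against 0.574% of all probes. At an unadjusted p under 0.05 there were 10 at 8 h, against 2276 of all 16216 probes. At 24 h 5 were higher (7.6% of all probes) and 1 lower (7.2%). The median was 0.00 at 8 h and 0.03 at 24 h. DUSP4, a MAP kinase phosphatase, stood at 6.09 and 6.15 in the controls, at 6.49, 6.94 and 6.93 at 8 h, and at 7.37 and 7.35 at 24 h. JUN, a subunit of AP-1, stood at 9.32 and 9.31, then at 8.85, 8.59 and 8.88, and at 8.11 and 8.46, and its fall of 1.03 at 24 h passed the test (adjusted p 0.00645, limma). DUSP6 and SPRY4, both feedback inhibitors, differed by -0.20 and 0.03 at 24 h, not past the test. Without either control 3 of the 22 were called at 24 h, and 4 without either 24 h array.

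Stress lists split between members. In the integrated stress response list of 16 tested, 4 were higher at equal weight (2.95% of all probes) and at 24 h (7.6%). In the same list 1 was lower at equal weight (1.96%) and 2 at 24 h (7.2%). At 8 h 0 were called by limma, against 0.574% of all probes. At an unadjusted p under 0.05 there were 5 at 8 h, against 2276 of all 16216 probes. GDF15, a secreted growth differentiation factor, was at 4.83 and 5.25 in the controls, at 5.93, 5.81 and 5.55 at 8 h, and at 8.87 and 8.83 at 24 h, and 1 control lay below the floor. ATF3 and DDIT3 rose at 24 h by 1.29 and 1.15, while ATF4, ASNS and SLC7A11 gave -0.14, -0.44 and 0.03, of which ASNS alone passed. In the unfolded protein response list of 10 tested, 1 was higher and 3 were lower at 24 h (7.6% and 7.2% of all probes), among them HSPA5, the main chaperone of the endoplasmic reticulum. HSPA5 stood at 9.91 and 9.84, then at 9.74, 9.70 and 9.49 at 8 h, and at 8.63 and 8.91 at 24 h. Of 10 heat shock genes, 3 were lower at equal weight (1.96% of all probes) and at 24 h (7.2%; HSPA1A, HSPA1B and HSPE1), and 5 did not overlap between the groups, all lower, against 9.87% of all probes. HSPA1A and HSPA1B are near-identical genes, so their probes may share transcripts. At 24 h the unfolded protein list had 1 call without either control or crizotinib 24 h replicate 1 and 2 without any 1 of the 8 h arrays. The heat shock list had 0 calls at 24 h without control replicate 1 and 1 without crizotinib 24 h replicate 1, and the integrated stress list had 4 without either control or crizotinib 24 h replicate 1. At equal weight without either control, the heat shock list had 0 calls and the integrated stress list 1.

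For the remaining lists the counts at 24 h stand against 7.6% of all probes higher and 7.2% lower. Of 12 hypoxia response genes 4 were higher and 2 lower at 24 h, with ALDOC, an aldolase, rising from 9.58 and 9.65 to 11.11 and 11.10. VEGFA and BNIP3, both classical hypoxia targets, differed by -0.56 and -0.05 at 24 h, not past the test. Of 11 oxidative stress and iron genes 1 was higher at 24 h (the ferritin chain FTL) and 1 lower (GCLM, a subunit that makes glutathione), and TXNRD1, which keeps thioredoxin reduced, had a pooled difference of 0.51 that did not pass. Of 10 interferon response genes 2 were higher at 24 h (IFIT2 and IFIT3). Of 8 apoptosis regulators 0 were called at 8 h or 24 h by limma, against 0.574% and 14.8% of all probes. At an unadjusted p under 0.05 there were 4 at 8 h and 2 at 24 h, against 2276 and 5017 of all 16216 probes. HRK, a BH3-only activator, stood at 5.87 and 5.59 in the controls and from 6.26 to 7.77 under crizotinib. Of 9 invasion genes CDH2 fell at 24 h, and of 9 ribosome biogenesis genes NOP16 did. The hypoxia list had 2 and 1 calls at 24 h without control replicates 1 and 2, 3 without crizotinib 24 h replicate 1, 2 without its replicate 2, and 4 without crizotinib 8 h replicate 1 or 3. The oxidative list had 0 calls at 24 h without either control and 1 without crizotinib 8 h replicate 1. The interferon list had 1 and 0 calls without control replicates 1 and 2. The CDH2 call was lost without any 1 control or 8 h array, and the NOP16 call without either control or crizotinib 24 h replicate 1.

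**Figure D5:**
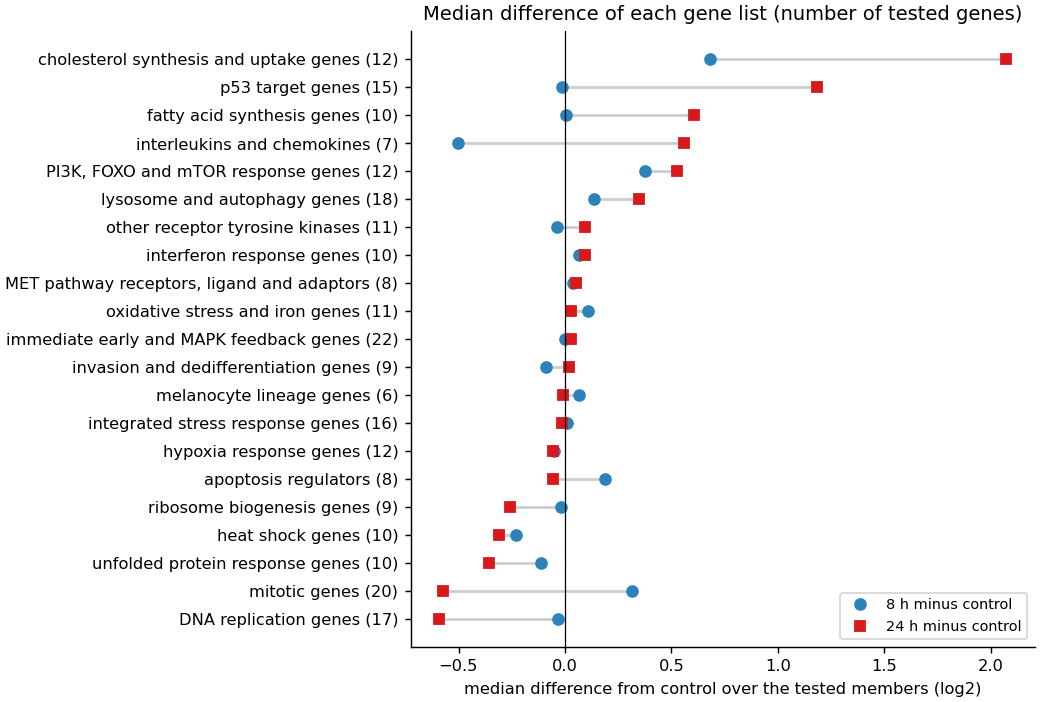
Median difference from control (x axis, log2) over the tested members of each gene list with at least 6 tested genes (y axis, number tested in brackets), at 8 h (circles) and 24 h (squares). Cholesterol synthesis genes have the highest medians at both times (0.68 and 2.07). Mitotic genes and interleukins lie on opposite sides of 0 at the 2 times, as do other lists, p53 targets among them (-0.02 and 1.18).

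The melanoma identity of the cells was checked by lineage genes. SOX10, a transcription factor of the neural crest lineage, stood at 11.56 and 11.43 in the controls and between 10.99 and 11.60 under crizotinib. MITF, the melanocyte regulator, lay close to the floor, at 5.46 and 5.33 in the controls. Only 6 of the 16 melanocyte genes with a probe were kept. None of the pigment genes TYR, TYRP1, DCT, PMEL and MLANA was among them. By limma 0 of the 6 were called at 8 h or 24 h, against 0.574% and 14.8% of all probes. At an unadjusted p under 0.05 there were 2 and 0, against 2276 and 5017 of all 16216 probes. No marker of keratinocytes or endothelium was kept (0 of 6 with a probe in each list). Of the immune markers 3 were kept, and CD68, a lysosomal glycoprotein used as a macrophage marker, rose by 1.11 at 24 h, while CD14 and CD74 differed by 0.10 and -0.05. The 2 fibroblast markers kept were LUM and FAP, and LUM, at 5.29 and 5.18 in the controls, rose by 0.69 at 24 h. The LUM call was lost without either control or without crizotinib 24 h replicate 1. The summed linear intensity of the 3 immune markers was 510 to 571 in the controls and 585 to 961 under crizotinib. For the 2 fibroblast markers it was 69.4 to 85.1 and 78.8 to 103. The part of either in the other results was not tested.

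The accession and description namings divide the arrays between the drugs differently, and which is true was not settled. Under the accession naming, the pooled crizotinib arrays were also set against the 5 pooled ciclopirox arrays. In that fit of all 12 arrays 335 probes differed (2.07%), of which 171 (1.05%) were higher and 164 (1.01%) lower. The sterol genes stood apart between the drugs: HMGCS1 was higher under crizotinib by 2.59 (adjusted p 0.0061), INSIG1 by 2.21 (0.00027) and MSMO1 by 2.30 (0.0095), by limma. STX3 and COBL were higher by 0.93 and 0.75, and JAG1 differed by -1.29, each past the test. TXNIP differed between the pooled drugs by 0.37 and GDF15 by 0.14, neither past the test (adjusted p 0.708 and 0.974, limma). These pooled values average over times at which the order of the drug means turned. TXNIP had means of 9.43 at 8 h and 11.36 at 24 h under ciclopirox, against 10.60 and 10.53 under crizotinib. GDF15 had means of 5.01 and 9.62 under ciclopirox, against 5.76 and 8.85 under crizotinib. Its 8 h mean under ciclopirox lay below the lowest floor of 5.07, so the size of that 8 h difference is not measured. The drugs were not tested against each other at each time. EDN1 and VLDLR, a lipoprotein receptor, were lower under crizotinib, with differences of -2.26 and -1.77.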

How the data were processed

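The deposited scanner table gave, per the file headers, each probe's average intensity on each array with its detection p-value, and the submitters' processing notes name GenomeStudio with no version. The second deposited table held normalized intensity values on a linear scale under sample accessions. Its scale, judged from the values, is linear with all values above 0, its centring is given by column medians of 4.65 to 4.72 after log2, and its normalization method is not stated. Because the tables named 10 of 12 arrays differently, log2 of the normalized intensities of the accession-named table was used in place of the scanner intensities and description naming that had been designed, and the detection filter was taken over all 12 arrays, which needs no naming. This change was made after the files were seen.

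Probes were named by the platform annotation of the deposited table, with symbols updated by Entrez identifier. Of 16216 kept probes 13132 had 1 symbol and 3084 had none or, for 1 of them, several, for 10187 genes. Of 357 listed genes 254 were tested, each by its brightest probe. Other probes of the named genes moved the same way, except 1 of CD74.

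Differences were tested with limma 3.58.1 in R 4.3.3 (lmFit and eBayes, Benjamini-Hochberg over 16216 probes, threshold 0.05) on the 7 arrays. The pooled fit had 5 residual and 3.78 prior degrees of freedom. A fit with a mean per time gave the 8 h, 24 h, between-time and equal-weight differences. Equal weighting was an alternative to the pooled fit, and its counts stand beside the pooled count, not in its place. The script was tested on simulated data.

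The named genes were up to 12 with the largest rise and 12 with the largest fall among non-overlapping probes past the pooled test. Places left were filled by the largest non-overlapping differences, given as values. To these came MET, ALK, ROS1, MST1R and AXL, 2 genes per list with the largest difference, and 2 per direction between the times. Other list members named here were chosen after their values were seen. The members and lists were chosen with earlier results of these data known. Same-numbered arrays did not deviate together (r from -0.24 to 0.00336), so the replicate numbers were not taken to pair samples. With so few arrays per group this check cannot exclude a pairing. Of the deposited per-sample columns 0 were left unused. Alternatives tried were median centring, an added offset, other filters, all 12 arrays in the fit, array weights, a replicate block, a trended prior, both scanner namings and each array left out.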

Additional observations from a re-analysis of the deposited data

Results flagged for a closer look

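For 36 of the 71 named probes the difference from control was not the same at 8 h and at 24 h by limma's test between the times (adjusted p from 0.000111 to 0.0431). Of all probes 15.9% differed in that test. CYFIP2, ILMN_3253126, TMEFF2 and LHX4 were named for their small p in this same test, and many others for large differences. The count of 36 therefore partly reflects how the probes were chosen. The controls cancel from that test. Values are 24 h minus 8 h on the log2 scale. Among probes that also rose at 8 h they were IL24 (2.499), HMGCS1 (1.86), MSMO1 (1.91), INSIG1 (1.02), ILMN_2407799 (2.27), SH2D5 (1.23), SQLE (1.28), PTPRR (1.77), SCD (0.69) and SQSTM1 (0.52), all higher at 24 h. Those not called at 8 h and higher at 24 h were GDF15 (3.09), PLXNB1 (0.71), DUSP4 (0.57), SESN1 (2.37), ACSS2 (1.70), WIPI1 (1.26), TP53INP1 (2.05), CDKN1A (2.45), ALDOC (1.45), IFIT2 (1.06), CD68 (1.16), CYFIP2 (2.20) and ILMN_3253126 (2.52). CXCL8 (0.63) and HAS3 (0.96) lay below control at both times and less so at 24 h. Lower at 24 h than at 8 h were ILMN_1660067 (-0.82), COL8A1 (-1.61), EDN1 (-0.86), ILMN_2412384 (-1.03), HSPA5 (-0.88), BUB1B (-0.95), GINS2 (-0.73), CCL2 (-0.65), NOP16 (-0.44), TMEFF2 (-1.84) and LHX4 (-1.55). The SQLE value is that of its dimmer probe. For CDKN1A and PLXNB1 the fitted values above are not measured differences, since no 8 h array was above the background floor. As bounds, CDKN1A was at least 3.84-fold and PLXNB1 at least 1.05-fold higher at 24 h, the latter with 1 of the 2 arrays at 24 h above the floor. ILMN_3253126 was above the floor on 1 of the 3 arrays at 8 h.

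In 3 named genes a single crizotinib array lay far from the other 4, with a gap that took up 0.780 of the range for PAX3, 0.816 for TGFBI and 0.805 for CD74, against a critical value of 0.71. That value would flag about 1 in 20 groups by chance if all arrays came from 1 group, and all 71 named probes were checked. The crizotinib arrays join 8 h and 24 h, so the 3 flags cannot be set against that rate. PAX3 was at 6.42 on crizotinib 8 h replicate 1 and between 4.89 and 5.22 on the others. TGFBI was at 10.58 on crizotinib 24 h replicate 2, and CD74 was at 7.23 on crizotinib 24 h replicate 1.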

How the results depend on the processing

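The pooled count of 4 became 10 with 34 added to the linear values and 10 with a trended and robust prior. It was 1 with no filter, 43 with all 12 arrays in the fit, 797 with the times as separate means, 122 with array weights and 1 with the scanner arrays matched to the accession columns. It was 0 to 1 with each array left out, and 4 with median centring or with probes detected on all 12 arrays. The description naming gave 6, none shared. The 8 h count of 93 became 258 with the addition, 19 with no filter, 207 with probes detected on all 12 arrays, 234 with all 12 arrays in the fit, 195 with array weights, 326 with the trended prior, 166 with the matched arrays, 0 with the description naming, and 0 to 43 with each array left out. The 24 h count of 2400 became 1084 with no filter, 1 with the description naming, and 662 to 2188 with each array left out. The count between the times, 2579, became 1166 with no filter, 0 with the description naming, and 1104 to 1930 with each array left out. The equal-weight count of 797 became 227 with no filter, 1325 with all 12 arrays, 1 with the description naming, and 59 to 544 with each array left out. The 54 probes called at both times became 14, 131, 0 and, with each array left out, 0 to 29, and 99 with the matched arrays. No filter tests more probes, and a left-out array leaves fewer samples. The cause of the other shifts was not tested.

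With the replicate block the counts were 0 for the pooled test (1218 probes at an unadjusted p under 0.05), 6 at 8 h, 1380 at 24 h, 1119 between the times, 187 at equal weight and 6 at both times. Same-numbered arrays of the 2 times correlated at -0.07 and -0.24 in their deviations from the group means. With so few arrays per group these correlations cannot exclude a pairing, and the labels do not state one.

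Directions of the pooled difference that turned under the description naming were those of EDN1 (0.27), ILMN_1658448 (0.00303), JUN (0.10), SESN1 (-0.22), ACSS2 (-0.0645), VLDLR (0.46), PAX3 (-0.19), FAP (0.00694), CD68 (-0.00502), CYFIP2 (-0.26) and TMEFF2 (0.22). With the matched scanner arrays PAX3 (-0.18) and LHX4 (-0.0872) turned, with array weights ALK (-0.0213) and TMEFF2 (0.12), and LHX4 turned with separate means (-0.14) and with the replicate block (-0.14). With each array left out, the pooled difference of ALK ran from -0.25 to 0.31, of FAP from -0.35 to 0.12, of LHX4 from -0.16 to 0.26 and of PAX3 from -0.0278 to 0.35. Against ciclopirox, BUB1B ran from -0.0128 to 0.32, CALR from -0.17 to 0.13, CD74 from -0.0274 to 0.21, CENPE from -0.0912 to 0.0700, FAP from -0.11 to 0.10, GDF15 from -0.37 to 0.84, HRK from -0.21 to 0.29, LHX4 from -0.15 to 0.27, PAX3 from -0.18 to 0.20 and TMEFF2 from -0.28 to 0.20. None of these 14 differences from control or ciclopirox passed its test in the reported fit. The planned offset of 50 and the planned quantile normalization apply to scanner intensities and were replaced by the addition and the centring above, chosen after seeing the data.

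The 2 controls without a time, the unsettled naming and the floor of dim probes limit these results. Probes near the floor (ALK, PLXNB1, CDKN1A in the controls) give bounds only.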
